A study of Mus musculus with 37 samples.

Results

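The genes described are Gpr37l1, an orphan G protein-coupled receptor of astrocytes, 8 further G protein-coupled receptors found on these cells (Ednrb, Grm3, Grm5, P2ry1, Adra1a, S1pr1, Cnr1 and Gper1), and Psap, the gene of prosaposin, which has been proposed as the precursor of a Gpr37l1 ligand. They are 10 of the 21975 genes in the deposited tables and were selected by symbol. The set was built around Gpr37l1, which was chosen on its lower values after injury in these same libraries. Its levels in injured against sham mice are therefore given as a description with no test. Astrocytes were isolated from the hippocampus of wild-type male mice, given as CD1 in the study's methods and as CD31 in the sample labels, 4 months after controlled cortical impact (CCI) of the right parietal cortex or after sham surgery with craniectomy and electrode implantation. Injured mice with at least a pair of seizures in continuous EEG-video recording were called PTE+ (post-traumatic epilepsy), and injured mice that did not develop epilepsy PTE-. The ipsilateral and the contralateral hippocampus of a mouse gave separate libraries: 5 PTE+, 10 PTE- and 5 sham contralateral, and 4 PTE+, 8 PTE- and 5 sham ipsilateral, from 20 mice, 17 of them with both sides. Cells were taken with beads against the astrocyte antigen ACSA-2, so each library is the RNA of 1 mouse's captured cells from 1 side. In such bulk RNA, fewer cells of a type and less RNA per cell cannot be told apart.

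G protein-coupled receptors carry signals from outside the cell through heterotrimeric G proteins. Those coupled to Gq release calcium from internal stores, and in astrocytes Grm5, P2ry1, Adra1a and Ednrb are known for this, while Grm3 and Cnr1 couple to Gi and lower cyclic AMP. Gpr37l1 is a close relative of Gpr37, is found mainly in glia, and has no ligand that is generally accepted. Prosaposin is secreted, or is sent to lysosomes and cut into the saposins that assist the breakdown of sphingolipids.

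Gpr37l1 lies on the minus strand of chromosome 1 (GRCm38, 135160234 to 135167681) and Psap on the plus strand of chromosome 10 (60277627 to 60302597); both are protein-coding. The sequence around the start of each is shown because the levels of this receptor and of the proposed ligand precursor are compared throughout. Each window holds 250 bases before to 50 bases after the start in RefSeq (GRCm38.p6), at chr1:135167632-135167931 on the minus strand and chr10:60277378-60277677 on the plus strand. They are printed 5′ to 3′ on the gene's strand, with matches to the motifs named after them in capitals.
Gpr37l1: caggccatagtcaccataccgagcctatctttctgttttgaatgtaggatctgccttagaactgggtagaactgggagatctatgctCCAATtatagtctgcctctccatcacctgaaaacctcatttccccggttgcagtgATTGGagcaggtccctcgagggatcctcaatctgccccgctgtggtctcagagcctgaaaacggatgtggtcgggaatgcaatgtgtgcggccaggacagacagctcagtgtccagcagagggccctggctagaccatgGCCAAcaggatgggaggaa
Psap: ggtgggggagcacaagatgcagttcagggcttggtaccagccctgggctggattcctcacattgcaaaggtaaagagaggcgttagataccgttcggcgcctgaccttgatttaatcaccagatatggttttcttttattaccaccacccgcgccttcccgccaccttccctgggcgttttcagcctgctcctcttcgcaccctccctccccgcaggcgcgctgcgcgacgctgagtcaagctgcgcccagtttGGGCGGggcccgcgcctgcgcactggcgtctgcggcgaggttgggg
The motifs were searched on both strands. The Gpr37l1 window held a CCAAT box (CCAAT) on each strand and an NFI half-site (TTGGC) on the reverse strand, and none of these overlapped. The Psap window held a GC box (GGGCGG). In the 32851 RefSeq windows of this length, 37.4% held a CCAAT box, 46.7% an NFI half-site and 35.7% a GC box. The Gpr37l1 window had a GC content of 53.7% and the Psap window of 62%. A window was at hand for 7 of the 10 genes. Among these Ednrb also held a CCAAT box, Gper1 a TATA box (TATAAA, in 13.6% of all windows) and Cnr1 an E-box (CACGTG, 7.15%). An NFI half-site was found in 5 of the 7 windows (Cnr1, Ednrb, Gper1, Gpr37l1 and Grm3) and a GC box in 4 (Gper1, Grm3, P2ry1 and Psap).

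Libraries held 25371887 to 59846479 counts, and between 9020 and 15545 genes were detected in each. All 12 astrocyte markers on a list of markers were present, with a summed level of 6741 to 23703 TPM (reads per length scaled to a fixed library total), against 61.3 to 1250 TPM for the sum of 9 neuronal markers. Markers of other cells were higher in some libraries: 6 markers of ependymal cells and choroid plexus summed to 104 to 9807 TPM, the highest in an ipsilateral PTE- library, and 12 of endothelial and mural cells to 152 to 3030 TPM. The ipsilateral library of PTE- mouse a8_11 stood apart with the fewest genes, and it had no count of Grm3, P2ry1, Adra1a or Cnr1. Ipsilateral fold changes of the 10 genes kept their direction without it in the comparison of injured with sham mice, and are given without it for Psap, S1pr1, Ednrb, Grm3 and Gper1.

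On the per-length scale Gpr37l1 was the most abundant of the 10 genes, with a median of 3645 TPM (range 1725 to 5877) over the 37 libraries. It ranked between 7 and 57 among all genes of a library, and its reads made up 0.269% to 0.777% of a library's counts. S1pr1, the G protein-coupled receptor of sphingosine 1-phosphate, followed with a median of 1072 TPM and Psap with 788 TPM. Ednrb, the endothelin B receptor, had 290.2 TPM, Grm3, a metabotropic glutamate receptor, 189 TPM, and Gper1, the G protein-coupled oestrogen receptor, 76.1 TPM. The other 4 genes were low: Adra1a, the alpha-1A adrenergic receptor, at 8.61 TPM, Grm5, another metabotropic glutamate receptor, at 5.18 TPM, P2ry1, a receptor of ADP, at 3.75 TPM, and Cnr1, the cannabinoid receptor 1, at 0.83 TPM. Gpr37l1 was above S1pr1 in 37 of 37 libraries, S1pr1 above Psap in 31, Psap above Ednrb in 36 and Ednrb above Grm3 in 34. Grm3 was above Gper1 in 34 libraries and Gper1 above Adra1a in 36. Among the low genes the order was not constant: Adra1a was above Grm5 in 21 of 37 libraries, Grm5 above P2ry1 in 24 and P2ry1 above Cnr1 in 25. At most 3 counts were found for Cnr1 in 10 libraries, P2ry1 in 9, Adra1a in 5, and Grm3, Gper1 and Grm5 in 1 each.

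**Figure D1:**
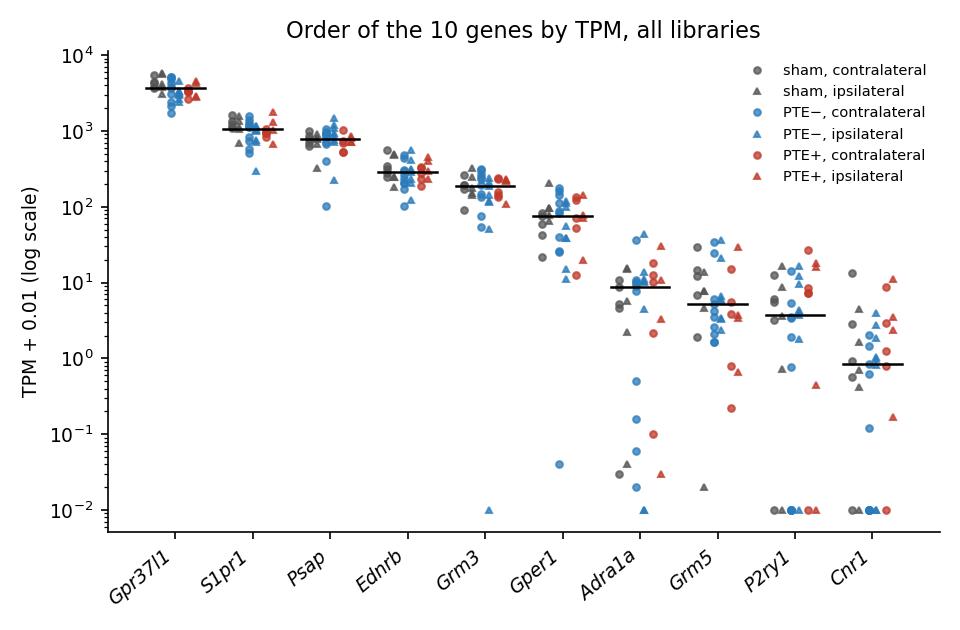
TPM of each gene in each of the 37 libraries, with 0.01 added for the log axis; circles are contralateral and triangles ipsilateral libraries, grey sham, blue PTE- and red PTE+, and the bars are medians over all libraries. Gpr37l1 lies highest, with a median of 3645 TPM, and the 4 low genes overlap each other.

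Gpr37l1 was lower on average in injured than in sham mice on both sides, with the larger point estimate ipsilaterally. In the mice with both sides, the log2 difference of side between injured and sham mice was -0.23 ± 0.25 (SE), within its SE of 0. Levels within a gene are given in CPM (counts scaled to a fixed library total, with the trimmed mean of M values, TMM). In the ipsilateral hippocampus the 5 sham libraries held 4016, 6392, 7368, 7537 and 8508 CPM, the 4 PTE+ libraries 3789, 3795, 5171 and 5491 CPM, and the 8 PTE- libraries 3537 to 5851 CPM with a median of 4429. Each injured library was below the sham median of 7368 CPM, and 5 of the 12 were below the lowest sham library, that of mouse a9_10, while the other 4 sham libraries were above every injured one. The means were 6764 ± 1710 CPM in sham (SD, n = 5), 4485 ± 737 in PTE- (n = 8) and 4561 ± 898 in PTE+ (n = 4). The log2 fold change of injured against sham, with injured as the mean of the PTE- and PTE+ coefficients, was -0.58 ± 0.15 (SE), or 0.669-fold. PTE- alone gave -0.59 ± 0.16 and PTE+ alone -0.57 ± 0.20. Leaving out each library in turn gave -0.72 (without sham mouse a9_10) to -0.48 (without sham mouse a9_9), and other scalings, filters and tools gave -0.58 to -0.39.

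Contralaterally the groups overlapped further. The sham libraries held 4736, 5254, 6427, 6477 and 6499 CPM (mean 5879 ± 827, n = 5), the PTE+ libraries 3251, 4213, 4457, 4966 and 5567 CPM (4491 ± 866, n = 5), and the PTE- libraries 2830 to 7744 CPM with a median of 5378 (5290 ± 1506, n = 10). All 5 PTE+ libraries were below the sham median and 3 were below the lowest sham library, whereas 2 PTE- libraries exceeded every sham library. The log2 fold change of injured against sham was -0.27 ± 0.18, with -0.15 ± 0.19 in PTE- and -0.39 ± 0.22 in PTE+. Mouse names begin with a8 or a9, a prefix whose meaning the labels do not give. Within these names the difference of injured and sham means on log2(CPM + 1) was -0.24 (a8, 6 against 2 libraries) and -0.28 (a9, 9 against 3) contralaterally, and -0.63 (4 against 2) and -0.51 (8 against 3) ipsilaterally. The PTE- and PTE+ comparisons share the sham libraries.

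**Figure D2:**
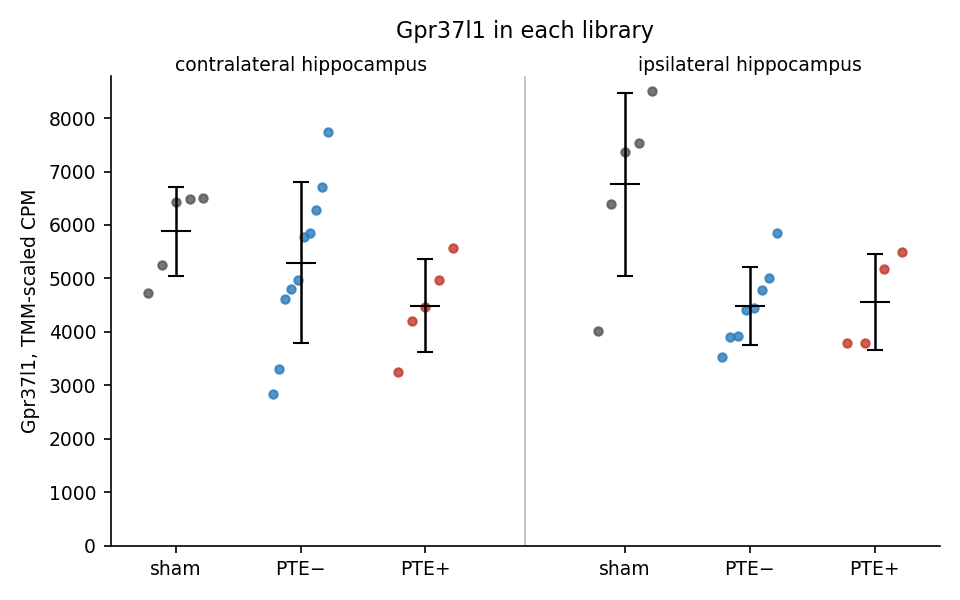
Gpr37l1 in TMM-scaled CPM in each library by group, contralateral on the left and ipsilateral on the right; points are libraries, and the bars are the mean ± SD. The ipsilateral injured libraries lie between 3537 and 5851 CPM, below 4 of the 5 sham libraries.

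Astrocyte markers moved in the same direction as Gpr37l1 ipsilaterally. Of the 12 markers, 11 had a lower and 1 a higher point estimate in injured than in sham ipsilateral libraries, with a median log2 fold change of -0.27 against 0.02 over all 14903 genes tested. P-values given with a log2 fold change here and below are the unadjusted values of edgeR's quasi-likelihood test unless another test is named. The adjusted value of each from edgeR, in fits on all libraries, rounds to 1. None of the markers was called, and 3 had an unadjusted p under 0.05: Aldoc, a glycolytic enzyme of astrocytes (-0.74 ± 0.25, p = 0.00784), Aldh1l1, an enzyme of folate metabolism (-0.62 ± 0.20, p = 0.00667), and Glul, glutamine synthetase (-0.61 ± 0.21, p = 0.00982). Gfap, the intermediate filament that rises in reactive astrocytes, had a log2 fold change of 0.57 ± 0.45 (p = 0.226). The summed TPM of the 12 markers was 15506 to 23703 in ipsilateral sham libraries (median 21922), 6741 to 20884 in PTE- (15514) and 14608 to 19051 in PTE+ (17333). Set against that sum, Gpr37l1 TPM was 21.8% ± 5.19 in ipsilateral sham (SD, n = 5), 22.3% ± 7.82 in PTE- (n = 8) and 21.5% ± 5.21 in PTE+ (n = 4), a spread that covers the differences between the means. Contralaterally 9 of the 12 markers had a lower point estimate, with a median of -0.07, and Gpr37l1 was 22.6% ± 3.68 of the marker sum in sham (n = 5), 19.95% ± 6.08 in PTE- (n = 10) and 19.9% ± 3.35 in PTE+ (n = 5). All 6 ependymal and choroid plexus markers had a higher ipsilateral point estimate in injured than in sham libraries (median 1.04, and 1.73 for PTE- alone), none with an unadjusted p under 0.05, and their summed level was 104 to 1753 TPM in sham, 317 to 9807 in PTE- and 121 to 1545 in PTE+. Contralaterally 5 of the 6 did (median 0.43), 1 with an unadjusted p under 0.05. The part of these marker lists in the Gpr37l1 values was not tested.

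Of the 9 other genes, all passed the filter on low counts in every fit and none was called in injured against sham mice, that is, none had a Benjamini-Hochberg adjusted p under 0.05 over all genes tested. DESeq2 and both limma fits called none either. Contralaterally 0% of the 14642 genes tested were called and 1.2% had an unadjusted p under 0.05, and among the 9 genes this was S1pr1. Ipsilaterally 0% were called and 1.72% had an unadjusted p under 0.05, none of the 9 among them. PTE- against sham gave 0% called on both sides, with 1.54% at an unadjusted p under 0.05 contralaterally and 1.58% ipsilaterally and none of the 9 genes. In limma voom the ipsilateral comparison gave Gper1 -1.54 ± 0.44 (unadjusted p = 0.00254, adjusted p = 0.684) and Psap 0.48 ± 0.19 (unadjusted p = 0.0200, adjusted p = 0.952). PTE+ against sham gave 0% called on both sides, with 1.23% contralaterally, S1pr1 among them, and 1.66% ipsilaterally with none of the 9. The median log2 fold change of the 9 genes in injured against sham mice was -0.15 contralaterally and 0.09 ipsilaterally, against 0.04 and 0.02 over all genes tested.

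**Figure D3:**
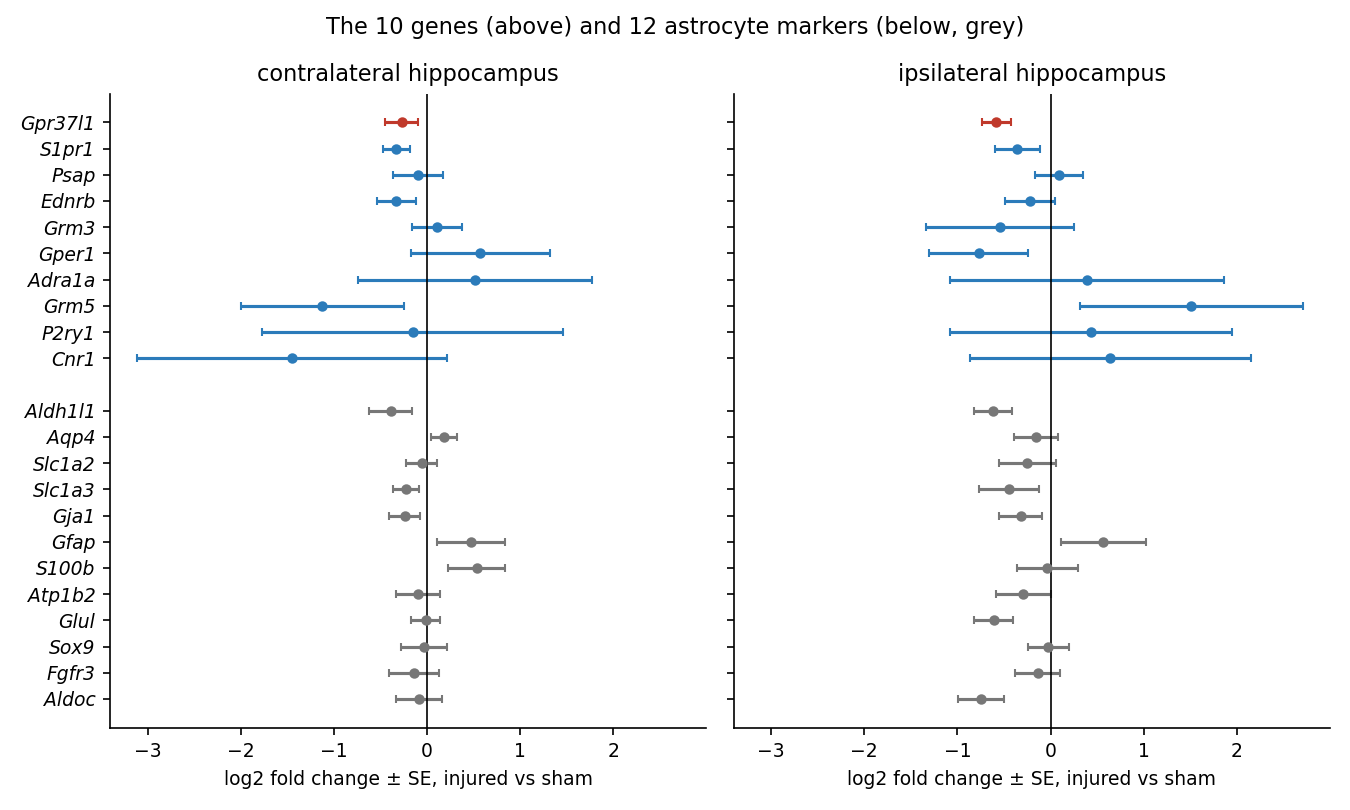
Log2 fold change ± SE of injured against sham mice from edgeR, contralateral on the left and ipsilateral on the right; red is Gpr37l1, blue the other 9 genes and grey the 12 astrocyte markers. Ipsilaterally Gpr37l1 (-0.58) lies beside Aldh1l1, Glul and Aldoc, and the intervals of the 4 low genes are the widest.

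Psap, the proposed ligand precursor, differed by less than its standard error between injured and sham mice. Contralaterally the sham libraries held 1039, 1065, 1382, 1390 and 1491 CPM, the PTE+ libraries 843, 1030.0, 1076, 1110 and 1485 CPM, and the PTE- libraries 202 to 1667 CPM with a median of 1335. The lowest value was that of PTE- mouse a9_15, whose next neighbour in the group held 1182 CPM. The log2 fold change of injured against sham was -0.09 ± 0.27 (p = 0.735). Ipsilaterally the sham libraries held 701, 1185, 1208, 1275 and 1844 CPM, the PTE+ libraries 1006, 1026, 1317 and 1364 CPM and the PTE- libraries 489 to 2060 CPM with a median of 1507, and the fold change was 0.09 ± 0.25 (p = 0.720). Without the PTE- library of a8_11, which held the 489 CPM, it was 0.20 ± 0.19 (p = 0.322). Of the 12 injured ipsilateral libraries 9 were above the sham median, 2 were above every sham library and 1, that of a8_11, was below every one. Within mouse names the groups differed in direction. Among a9 mice all 5 ipsilateral PTE- libraries were above the 3 sham libraries (difference 0.46 on log2(CPM + 1), exact permutation p = 0.0357). Among a8 mice the difference was -0.16 (3 against 2, exact permutation p = 0.900).

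The 8 listed partners of prosaposin included Gpr37, the closest relative of Gpr37l1, the sorting receptor Sort1, progranulin (Grn), and lysosomal enzymes such as Ctsd, Galc, Arsa and Asah1. None was called or had an unadjusted p under 0.05 in injured against sham mice on either side. Their median log2 fold change was 0.05 contralaterally and -0.39 ipsilaterally, where 6 of 8 had a lower point estimate. Gpr37 held 195 CPM (median, range 132 to 280.0, n = 5) in ipsilateral sham, 137 (0.10 to 259, n = 8) in PTE- and 108 (86.5 to 169, n = 4) in PTE+ libraries. Its log2 fold change was -0.65 ± 0.68 (p = 0.356). Asah1, acid ceramidase, was the only partner with an unadjusted p under 0.05 between PTE+ and PTE-, contralaterally (-0.66 ± 0.24, p = 0.0118), and gave -0.65 ± 0.27 in PTE+ against sham there (p = 0.0252). Gpr37 is also a gene of oligodendrocytes, and 7 of 10 markers of the oligodendrocyte lineage had a lower ipsilateral point estimate in injured mice (median -1.13, 1 with an unadjusted p under 0.05), with a summed level of 470.8 to 2217 TPM in sham, 505 to 1169 in PTE- and 504 to 1022 in PTE+ libraries. Their part in the Gpr37 values was not tested.

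S1pr1 (chromosome 3, 115710433 to 115715072, minus strand) couples to Gi and binds sphingosine 1-phosphate. Of the 9 genes tested against sham, it had the smallest unadjusted edgeR p for injured mice on each side. Ipsilaterally limma voom gave Gper1 a smaller p than S1pr1. In the contralateral hippocampus the sham libraries held 2035, 2249, 2371, 2663 and 2833 CPM (mean 2430 ± 320, n = 5), the PTE+ libraries 1586, 1593, 1688, 2022 and 2143 CPM (1806 ± 259, n = 5) and the PTE- libraries 1314 to 2691 CPM with a median of 2155 (2073 ± 450, n = 10). Of the 5 PTE+ libraries 4 were below every sham library, and 12 of 15 injured libraries were below the sham median. The log2 fold change was -0.33 ± 0.15 for injured against sham (edgeR p = 0.0353), -0.43 ± 0.18 for PTE+ (p = 0.0265) and -0.23 ± 0.15 for PTE- (p = 0.151). A 2-sided exact permutation test on log2(CPM + 1) gave p = 0.0473 for injured and p = 0.0159 for PTE+ against sham. These were the only 2 of 74 such tests over all mice of a hemisphere with a p under 0.05, and they share the PTE+ and sham libraries. Of 148 tests within mouse names 3 had a p under 0.05, a pair for Psap and 1 for Cnr1 (contralateral PTE- against sham among a9 mice, -2.56, 6 against 3 libraries, exact p = 0.0476). With no difference at all, up to 1 in 20 such tests would pass that threshold. Leaving out each library in turn kept the edgeR p under 0.05 in 15 of 20 cases for either comparison, and without sham mouse a8_16 the exact p for injured against sham was 0.130. That p stayed under 0.05 in 7 of 20 cases, and the exact p for PTE+ against sham in 10 of 10 (0.0159 to 0.0397). Within mouse names the difference of means was -0.37 (a8, 6 against 2 libraries, exact p = 0.214) and -0.27 (a9, 9 against 3, exact p = 0.232).

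Ipsilaterally S1pr1 held 1309, 2617, 2696, 2751 and 2848 CPM in sham, 1283, 1910, 2199 and 2977 CPM in PTE+ and 744 to 2223 CPM in PTE- libraries, with a median of 1887. The lowest sham library was again that of mouse a9_10, whose Gpr37l1 was also the lowest of its group, and all 8 PTE- libraries were below the other 4 sham libraries. The log2 fold change was -0.36 ± 0.24 (p = 0.152), and -0.25 ± 0.19 without a8_11 (p = 0.210). None of the 9 listed genes of sphingosine phosphate metabolism, transport and reception, of which 9 were tested contralaterally and 8 ipsilaterally, had an unadjusted p under 0.05 on either side, with medians of -0.08 contralaterally and 0.05 ipsilaterally.

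Ednrb (chromosome 14, 103814625 to 103844402, minus strand), Grm3 (chromosome 5, 9485541 to 9725170, minus strand) and Gper1 (chromosome 5, 139423151 to 139427800, plus strand), at intermediate levels, had larger spreads. Ednrb held 567.8, 639, 674, 771 and 1065 CPM in contralateral sham, 477, 492.5, 599, 620.1 and 666 CPM in PTE+ and 356 to 1035 CPM in PTE- libraries (median 610.5), and all 5 PTE+ libraries were below the sham median. Its log2 fold change of injured against sham was -0.33 ± 0.21 (p = 0.134), and -0.22 ± 0.27 ipsilaterally (p = 0.413). Single sham libraries moved both values: the contralateral one was -0.16 without mouse a9_11, and the ipsilateral one -0.022 without a9_9 and -0.39 without a9_10. Without a8_11 the ipsilateral value of Ednrb was -0.13 ± 0.24 (p = 0.589). None of the 6 listed endothelin genes, of which 5 were tested, had an unadjusted p under 0.05 in these comparisons. Grm3 held 190.2, 329.9, 350.2, 399 and 430.0 CPM in contralateral sham libraries and 273, 294, 315, 407 and 409.8 CPM in PTE+ libraries, with a fold change of 0.11 ± 0.27 (p = 0.693). Ipsilaterally Grm3 ranged from 268 to 672 CPM in sham, 205 to 405 in PTE+ and 0 to 436 in PTE- libraries, the 0 being that of a8_11. Its fold change there was -0.54 ± 0.80 (p = 0.505) and without a8_11 -0.40 ± 0.30 (p = 0.208). None of the 8 listed glutamate receptors and Homer scaffolds, of which 7 were tested ipsilaterally, had an unadjusted p under 0.05 there.

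Gper1 was higher in ipsilateral than in contralateral sham libraries and its point estimate after injury was negative ipsilaterally and positive contralaterally, where it was -0.02 with limma voom. Contralateral sham libraries held 37.3, 65.7, 86.9, 101 and 132 CPM and ipsilateral ones 118, 118, 164, 200.2 and 285 CPM. Ipsilateral PTE+ libraries held 26.7, 107, 113 and 191 CPM and PTE- libraries 20.5 to 244 CPM with a median of 62.5, so that 8 of 12 injured libraries were below every sham library. The ipsilateral log2 fold change was -0.77 ± 0.53 (p = 0.165, exact permutation p = 0.0706), and the contralateral one 0.57 ± 0.74 (p = 0.449). Limma voom gave -0.99 ± 0.38 ipsilaterally (unadjusted p = 0.0185). The exact p was 0.0364 without a8_11, where edgeR gave -0.90 ± 0.48 (p = 0.0784), and 0.166 without sham mouse a9_11. Without a8_11, PTE- against sham gave -1.17 ± 0.52 (p = 0.0402). Within mouse names the ipsilateral difference of means was -0.21 (a8, 4 against 2 libraries, exact p = 0.800) and -1.60 (a9, 8 against 3, exact p = 0.0788).

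The 4 low receptors, all on plus strands, were Grm5 (chromosome 7, 87584168 to 88134907), P2ry1 (chromosome 3, 61002795 to 61008982), Adra1a (chromosome 14, 66635251 to 66771168) and Cnr1 (chromosome 4, 33924593 to 33948831), and they varied widely within groups. Their libraries ranged from 0 to 147 CPM, the highest being Grm5 in an ipsilateral PTE- library, and the standard errors of their log2 fold changes of injured against sham were 0.88 to 1.67. Grm5 held 3.90, 13.2, 21.3, 28.7 and 71.5 CPM in contralateral sham and 0.02, 5.88, 7.93, 10.2 and 11.7 CPM in ipsilateral sham libraries. Its fold change was -1.12 ± 0.88 contralaterally (p = 0.214) and 1.51 ± 1.195 ipsilaterally (p = 0.221). The contralateral value of Grm5 was -0.40 without sham mouse a8_16, and the ipsilateral one 0.78 without PTE- mouse a8_14. Adra1a gave 0.52 ± 1.25 (p = 0.685) and 0.39 ± 1.47 (p = 0.792). P2ry1 gave -0.15 ± 1.62 (p = 0.925) and 0.44 ± 1.51 (p = 0.775). P2ry1 shares 23.1% of its exonic bases with an antisense gene, Gm37035, which has no row in the tables, and the library kit does not mark strand, so reads of the pair cannot be told apart there. Cnr1 was at most at 3 counts in 5 of 10 contralateral PTE- libraries, and in 1 of 5 sham and 1 of 5 PTE+ libraries. Its fold change was -1.45 ± 1.67 (p = 0.395) contralaterally and 0.64 ± 1.51 (p = 0.676) ipsilaterally. Without sham mouse a9_11, which held 44.3 CPM of Cnr1, the contralateral value was 0.14. Of the 7 listed endocannabinoid genes only Mgll, the lipase that degrades 2-arachidonoylglycerol, had an unadjusted p under 0.05 (contralateral, 0.39 ± 0.15, p = 0.0188). Its means were 542 ± 109 CPM in sham (n = 5), 760.3 ± 121 in PTE- (n = 10) and 663 ± 116 in PTE+ (n = 5).

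**Figure D4:**
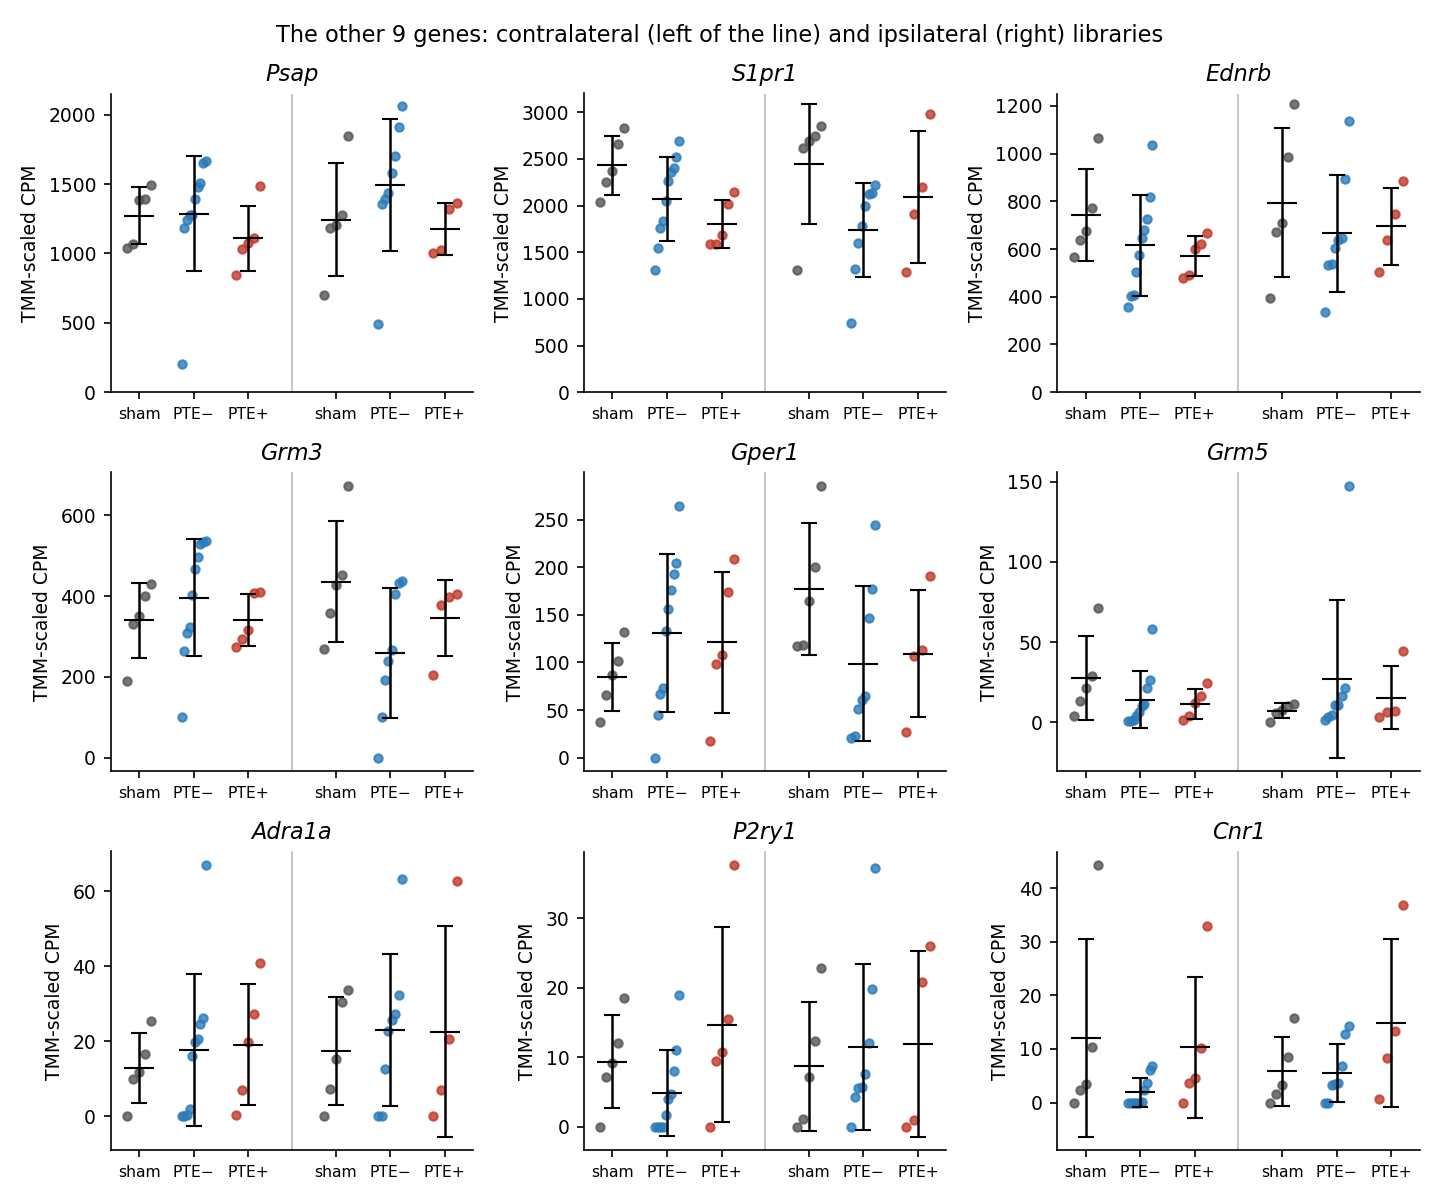
TMM-scaled CPM of the other 9 genes in each library, contralateral left and ipsilateral right of the line in each panel; points are libraries and bars the mean ± SD, which reach below 0 for the low genes. Of the 5 contralateral PTE+ libraries of S1pr1 (1586 to 2143 CPM), 4 lie below every sham library (2035 to 2833 CPM). The last 4 panels show the wide spread of Grm5, P2ry1, Adra1a and Cnr1 within groups.

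PTE+ and PTE- mice, both injured, did not differ in any of the 10 genes by the adjusted p. Contralaterally 0.00683% of the genes tested were called and 2.21% had an unadjusted p under 0.05, none of the 10 among them. Ipsilaterally 0% were called and 1.75% had an unadjusted p under 0.05, again none of the 10. For Gpr37l1 this comparison did not enter the choice of the gene. Its log2 fold change of PTE+ against PTE- was -0.24 ± 0.19 contralaterally (p = 0.228) and 0.02 ± 0.18 ipsilaterally (p = 0.893), where the means of 4561 and 4485 CPM differed by less than either SD. The contralateral value of Gpr37l1 depended on the method: it was -0.30 ± 0.14 with limma voom (unadjusted p = 0.0370), -0.058 with limma on log2(TPM + 1), and -0.14 without PTE+ mouse a9_18. S1pr1 gave -0.20 ± 0.16 (p = 0.219) and 0.27 ± 0.27 (p = 0.340). Psap gave -0.22 ± 0.28 (p = 0.456) and -0.34 ± 0.29 (p = 0.258), and ipsilaterally without a8_11 -0.44 ± 0.22 (p = 0.0632). Without PTE- mouse a9_15 the contralateral value of Psap was -0.35 (unadjusted edgeR p = 0.0256), and among a9 mice all 3 ipsilateral PTE+ libraries were below the 5 PTE- ones (-0.58, exact permutation p = 0.0357), while the 1 a8 PTE+ library was 0.38 above the mean of 3. Ednrb, Grm3 and Gper1 lay between -0.22 (Grm3) and -0.11 contralaterally and between 0.06 (Ednrb) and 0.42 (Grm3) ipsilaterally, each within 1 standard error of 0. For Gper1 the ipsilateral value was 0.15 with edgeR and 1.11 ± 0.51 with limma voom (unadjusted p = 0.0437). Cnr1 had the largest contralateral estimate, 2.42 ± 1.77 (p = 0.185), with 0, 3.62, 4.63, 10.1 and 33.0 CPM in PTE+ libraries and 0 to 6.88 CPM, with a median of 0.08, in PTE- libraries. The exact permutation p was 0.0686, and it was 0.0160 without PTE+ mouse a9_18 and 0.185 without PTE+ mouse a9_19. All 9 neuronal markers had a higher point estimate in the same comparison (median 1.36, 1 with an unadjusted p under 0.05), and their summed TPM was 92.1 to 237 in PTE-, 97.3 to 1250 in PTE+ and 93.0 to 798 in sham contralateral libraries. The part of neuronal RNA in the Cnr1 values was not tested.

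The 2 hemispheres of the same mice were compared in the 17 mice with both. Exact tests of side used the differences within a mouse, whereas the edgeR fit treated the 2 libraries of a mouse as independent. None of the 10 genes was called in sham mice, where 0% of the 15731 genes tested were called and 2.05% had an unadjusted p under 0.05. The same held for the 9 genes tested in injured mice (0% called, 3.71% unadjusted) and for the difference of side between injured and sham mice (0% called, 2.4% unadjusted). In sham mice Gpr37l1 was higher ipsilaterally in 3 of 5, with a log2 fold change of 0.18 ± 0.20 (p = 0.375). The sham values entered the choice of this gene, so that p is not independent of the choice and no conclusion is drawn from it. In injured mice Gpr37l1 was lower ipsilaterally in 6 of 8 PTE- mice and higher in 3 of 4 PTE+ mice. Within-mouse differences ran from -0.77 to 1.03 on log2(CPM + 1) in PTE- and from -0.44 to 0.38 in PTE+. The log2 fold change of side was -0.05 ± 0.14 in injured mice. Its difference from that of sham mice was -0.23 ± 0.25, and both are given with no test. The 2 PTE- mice with higher ipsilateral values, a9_15 and a8_9, were those with the lowest contralateral ones (2855 and 3253 CPM).

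Gper1 was higher ipsilaterally in 5 of 5 sham mice, by 1.07 ± 0.54 on log2(CPM + 1) (SD), with an exact sign-flip p = 0.0625, the smallest that 5 mice allow. In injured mice it was higher in 5 of 12. The difference of the side effects was -1.07 (exact permutation p = 0.360), and edgeR gave -1.34 ± 1.008 (p = 0.194). Grm5 was lower ipsilaterally in 5 of 5 sham mice, by 1.73 ± 1.13 on average (a difference of -1.73, exact p = 0.0625), and higher in 9 of 12 injured mice. The difference of the side effects was 2.04 (exact permutation p = 0.0309) and in edgeR, without pairing, 2.48 ± 1.49 (p = 0.106). For this difference 3 alternatives of edgeR, the mouse as a replicate block among them, gave 2.45 to 2.76. Their unadjusted edgeR p ran from 0.0678 to 0.109. Without sham mouse a8_16, whose Grm5 went from 72.3 to 5.84 CPM, the exact p was 0.101, and it was under 0.05 in 15 of 17 cases when each mouse was left out in turn. Cnr1 was higher ipsilaterally in 8 of 12 injured mice and lower in 3 (0.98 ± 1.29, exact p = 0.0176), and Grm3 was lower in 8 of 12 (-1.13 ± 2.34, exact p = 0.0410). For Grm3 the mean was -0.50 without a8_11 (exact p = 0.0820). Of 46 exact tests of side these 3 had a p under 0.05, where up to 1 in 20 would with no difference at all. The edgeR fit gave neither Cnr1 nor Grm3 an unadjusted p under 0.05 for side in injured mice.

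**Figure D5:**
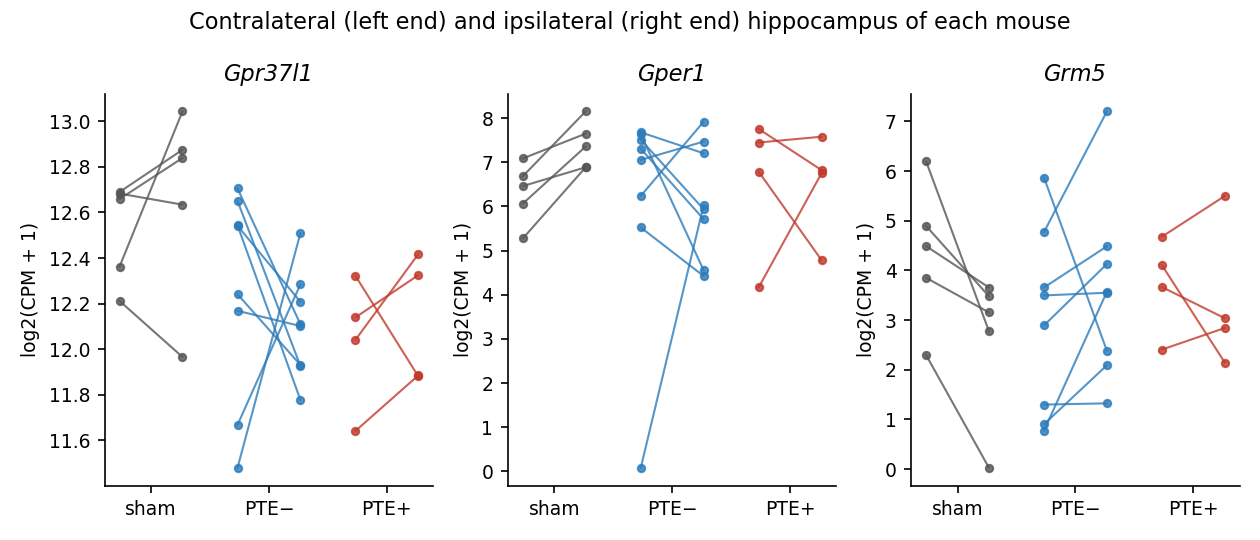
Log2(CPM + 1) of Gpr37l1, Gper1 and Grm5 in the contralateral (left end of a line) and ipsilateral (right end) hippocampus of each of the 17 mice, by group. Lines of Gper1 rise and lines of Grm5 fall in all 5 sham mice, while those of the injured mice run both ways.

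The genes most like Gpr37l1 across libraries were ranked by the smaller of the 2 Spearman correlations of log2(CPM + 1), over the 20 contralateral and over the 17 ipsilateral libraries, among 10389 genes with a mean TPM above 5 on both sides. These points share the libraries, their scaling and their groups, so the values are a description. The first 5 were Ephx2, soluble epoxide hydrolase (0.81 contralateral, 0.76 ipsilateral), S1pr1 (0.75 and 0.78), Grina (0.78 and 0.70), Mfge8, a secreted bridge to phosphatidylserine on cells that are cleared (0.70 and 0.77), and Ntsr2, a neurotensin receptor of astrocytes (0.69 and 0.79). Of the astrocyte markers, Fgfr3 ranked 22 and Gja1, a gap junction protein, 69 of 10389. Psap ran the other way ipsilaterally (0.27 contralateral, -0.45 ipsilateral). Ednrb (0.09 and 0.67), Grm3 (0.06 and 0.54) and Gper1 (0.01 and 0.51) had a positive rho ipsilaterally and one near 0 contralaterally. Ephx2 had means of 327 CPM in ipsilateral sham, 219.8 in PTE- and 249.8 in PTE+, and Mfge8 8267, 6046 and 6305 CPM. Contralaterally the means were 298.9, 250.9 and 206.6 CPM for Ephx2 and 6646, 7164 and 5758 CPM for Mfge8. There Mfge8 was higher in PTE- than in sham, as was Ntsr2 (4107 against 3874 CPM).

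The wider signalling lists moved little. Over 8 lists with 74 listed genes, 70 were tested contralaterally and 68 ipsilaterally, and none was called in any comparison. In injured against sham mice 1 gene, Mgll, had an unadjusted p under 0.05 with a higher value contralaterally, and ipsilaterally 1 did with a lower value. The latter was Ntsr2, among 11 other astrocyte receptors with a median of -0.21 (-0.44 ± 0.21, p = 0.0475), with 2233 to 6071 CPM in sham, 2039.7 to 4645 in PTE- and 3098 to 3856 in PTE+ libraries. The 15 listed genes of G protein signalling had medians of 0.03 contralaterally and 0.17 ipsilaterally and none with an unadjusted p under 0.05. The 10 purinergic, adrenergic and oestrogen receptor relatives, of which 7 were tested on either side, had medians of -0.14 and -0.16, likewise with none.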

How the data were processed

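RNA of bead-isolated (ACSA-2) hippocampal astrocytes was prepared by the authors with a SMART-Seq V4 kit and sequenced on a NovaSeq. Reads were trimmed with Trim Galore 0.6.4 and quantified by the authors with RSEM 1.2.28 and Bowtie2 2.4.1 on mm10. The deposited tables hold expected counts (estimated, not normalized, here whole numbers) and TPM from that quantification. The annotation release is not given in the sources used here, and symbols and positions were taken from GENCODE vM21 (GRCm38). The main tests used edgeR 4.0.16 under R 4.3.3, on genes that passed filterByExpr, with TMM scaling and the quasi-likelihood F test, with the 3 groups of a hemisphere in 1 fit, or 6 groups over the mice with both hemispheres, and Benjamini-Hochberg adjustment over all genes tested. Called means an adjusted p under 0.05. Single genes were compared by 2-sided exact permutation on log2(CPM + 1). At most 3 counts in a library was taken as the counting limit, and p-values cover the spread between mice. The fit was tested on simulated counts with a smaller spread between libraries than these data, and with larger changes than those of Gpr37l1 or S1pr1. That test therefore does not show the power or the error rate at the spread found here. All 37 libraries entered the main fits with none left out. The genes named are the 10 members, the genes of the fixed lists with an adjusted p under 0.05 or up to 2 a list with the smallest unadjusted p under 0.05, and the 5 genes most like Gpr37l1 by Spearman correlation; Gpr37, the astrocyte markers and Asah1 were named after their values were seen. The members and lists were chosen with earlier results of these data known. Results of some listed genes are not reported here. Alternatives were RLE size factors, no filter, the prefix of the mouse name as a covariate, 2 groups alone, DESeq2 1.42.0, limma 3.58.1 on voom weights or log2(TPM + 1), the study's criteria, the mouse as a replicate block, and leaving out each library. The 2 libraries of a mouse come from the same animal; the median correlation of their deviations from the group means was 0.10 over 17 mice (-0.07 to 0.37), against -0.02 for different mice of a group.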

Additional observations from a re-analysis of the deposited data

Results flagged for a closer look

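In 9 of 60 groups of libraries 1 library lay far below the rest of its group by Dixon's criterion on log2(CPM + 1). The criterion's rate of about 1 group in 20 holds for normal and independent values. These groups share libraries between genes, and some hold values near 0, so the count does not show an excess over that rate. For Psap these were the contralateral library of PTE- mouse a9_15 (202 CPM, next 1182) and the ipsilateral library of PTE- mouse a8_11 (489 CPM, next 1353). For Grm3 they were the contralateral library of PTE- mouse a9_20 (100.2 CPM, next 263), the ipsilateral library of PTE+ mouse a8_10 (205 CPM, next 377) and that of PTE- mouse a8_11 (0 CPM, next 99.8). S1pr1 was low in the ipsilateral library of sham mouse a9_10 (1309 CPM, next 2617) and Gper1 in the contralateral library of PTE- mouse a8_9 (0.057 CPM, next 44.6). Grm5 was at 0.018 CPM in the ipsilateral library of sham mouse a9_9 (next 5.88) and Adra1a at 0.042 CPM in the contralateral library of sham mouse a8_16 (next 10.01). The ipsilateral library of a8_11 was also the one with the fewest genes detected (9020).

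The side effect of Grm5 differed between injured and sham mice by 2.04 on log2(CPM + 1) in the exact permutation test (p = 0.0309). This was 1 of 46 exact tests of side, and its Benjamini-Hochberg adjusted p over the genes tested was 0.278. Without sham mouse a8_16 the exact permutation p was 0.101. The side effect was negative in 5 of 5 sham mice and positive in 9 of 12 injured mice, though near 0 in a8_11 (0.02) and a9_12 (0.05). The edgeR fit, which did not pair the libraries of a mouse, gave an unadjusted p of 0.106 for the same difference.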

How the results depend on the processing

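Alternatives of scaling, filter, tool, covariate, replicate block or left-out library, counted over all comparisons, made 262 pairs of an alternative and a comparison. No gene tested was called in any of them. Gpr37l1 was among the genes tested only for PTE+ against PTE- and for the sides of sham mice. Single libraries nevertheless moved many of the fold changes, none of them called, by over 1.5 times. Under the study's criteria (unadjusted p under 0.05, at least 1.2-fold, TPM above 5) 1 was counted in each of contralateral injured against sham and contralateral PTE+ against sham, S1pr1 in both. With the mouse as a replicate block 0 were called in each comparison of sides, as without it. With limma voom the log2 fold change of injured against sham turned to -0.055 for Grm3 and -0.023 for Gper1 contralaterally, and to -0.035 for Grm5, -0.90 for P2ry1 and -0.45 for Adra1a ipsilaterally; with limma on log2(TPM + 1) it was 0.0065 for Ednrb and with the name prefix as a covariate -0.091 for P2ry1 ipsilaterally. For contralateral PTE+ against PTE-, limma on log2(TPM + 1) turned Psap to 0.058, Ednrb to 0.10, Grm3 to 0.029 and Gper1 to 0.29, voom turned Gper1 to 0.42 and the prefix turned it to 0.033. Leaving out each library in turn changed the sign for injured against sham of Grm3 (-0.042 to 0.21), P2ry1 (-0.51 to 0.25) and Cnr1 (-2.04 to 0.14) contralaterally and of Psap (-0.037 to 0.31) and Adra1a (-0.25 to 0.78) ipsilaterally. For PTE+ against PTE- it did so for Ednrb (-0.17 to 0.0062) and Gper1 (-0.40 to 0.17) contralaterally and for Gpr37l1 (-0.077 to 0.10), Ednrb (-0.078 to 0.21) and Gper1 (-0.26 to 0.53) ipsilaterally. The cause was not tested. The alternatives for exact tests without each library were chosen after seeing the data. With a biological coefficient of variation of 1.32 to 1.40 and 4 to 10 libraries a group, these data limit what could be told of the low receptors most.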
